A study of Mus musculus with 8 samples.

Results

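Fibroblast growth factor (FGF) receptor 4 (Fgfr4) and 9 genes that work with it in the control of bile acid synthesis were examined in the livers of mice lacking SIRT7 and of wild-type mice. The genes are the receptor Fgfr4, its co-receptor Klb, the ligand Fgf1, the synthesis enzymes Cyp7a1, Cyp8b1, Cyp27a1 and Cyp7b1, the conjugating enzyme Baat, and the nuclear receptors Nr1h4 and Nr0b2. They were given as a list, and every probe set annotated to exactly 1 of these symbols was kept, which gave 19 of the 22626 probe sets tested and 10 of the 12393 genes measured. The list was chosen from a part of biology in which Fgfr4 and Fgf1 were already known to be lower on these arrays, so the differences below describe the genes and are no independent test of them.

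Liver RNA of 4 wild-type mice (WT) and of 4 mice lacking the histone deacetylase SIRT7 (SIRT7 KO) was measured on Affymetrix GeneChip arrays, 1 for each liver. The study used the SIRT7 KO mouse as a model that develops nonalcoholic steatohepatitis, a fatty liver disease with inflammation, on a chow diet. No treatment is named in the labels, which also give neither the age, sex, strain nor litter of the mice, and the deletion is not described there as limited to a cell type. Values are log2 expression, so that a difference of 1 is a doubling, and the level of a probe set cannot be set against that of another.

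The targeted gene was low on every SIRT7 KO array. The Sirt7 probe set read 8.98, 8.97, 8.88 and 8.57 on WT arrays 1 to 4 and 4.73, 4.53, 4.40 and 4.90 on SIRT7 KO arrays 1 to 4, a difference of -4.21, although the sources do not say whether it reads the deleted part. The hepatocyte marker albumin (Alb) read 15.22 in both genotypes, and 2 of 5 cholangiocyte markers (Krt7 and Cftr) lay under the lower quartile of all probe set means, which was 4.56. Array medians ran from 6.30 to 6.36, correlations between arrays from 0.986 to 0.996, and limma's array weights from 0.54 for WT array 4 to 1.31 for WT array 1. The labels do not say whether the arrays of a group were prepared together. If they were, preparation and genotype cannot be told apart. Each p-value sets a difference against the spread between the arrays of a genotype.

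Bile acids are made from cholesterol in hepatocytes, and the classical route begins with CYP7A1. Bile acids returning to the intestine activate the nuclear receptor FXR (the product of Nr1h4), which induces FGF15, the mouse counterpart of human FGF19. FGF15 reaches the liver through the blood and binds FGFR4 together with the co-receptor β-Klotho (Klb), and this signal lowers transcription of Cyp7a1. In hepatocytes FXR also induces SHP (Nr0b2), a nuclear receptor without a DNA-binding domain that represses Cyp7a1 and Cyp8b1. FGF1 is a ligand with a broad range that can bind all FGF receptors.

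Promoter sequence, 250 bases before to 50 bases after the transcription start in RefSeq (GRCm38.p6), was at hand for 6 of the 10 genes, namely Fgfr4, Klb, Cyp8b1, Cyp27a1, Nr1h4 and Nr0b2. The window of Fgfr4 is shown because that gene carries the largest difference of the 10, and those of Cyp8b1 and Nr0b2 because they held a match to 1 of 5 transcription factor words, printed in capitals. Fgfr4 lies at chr13:55152568-55152867 on the plus strand, Cyp8b1 at chr9:121916256-121916555 on the minus strand and Nr0b2 at chr4:133553126-133553425 on the plus strand.
Fgfr4: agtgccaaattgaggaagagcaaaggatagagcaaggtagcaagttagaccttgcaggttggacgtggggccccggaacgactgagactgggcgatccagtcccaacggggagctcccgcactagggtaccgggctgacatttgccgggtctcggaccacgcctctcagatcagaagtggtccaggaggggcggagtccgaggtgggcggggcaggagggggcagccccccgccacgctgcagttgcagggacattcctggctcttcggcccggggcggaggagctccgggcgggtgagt
Cyp8b1: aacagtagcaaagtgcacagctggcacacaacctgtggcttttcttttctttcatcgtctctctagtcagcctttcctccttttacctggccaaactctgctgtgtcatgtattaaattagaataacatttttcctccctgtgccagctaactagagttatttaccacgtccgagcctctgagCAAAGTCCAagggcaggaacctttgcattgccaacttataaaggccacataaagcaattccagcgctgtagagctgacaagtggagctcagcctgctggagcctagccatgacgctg
Nr0b2: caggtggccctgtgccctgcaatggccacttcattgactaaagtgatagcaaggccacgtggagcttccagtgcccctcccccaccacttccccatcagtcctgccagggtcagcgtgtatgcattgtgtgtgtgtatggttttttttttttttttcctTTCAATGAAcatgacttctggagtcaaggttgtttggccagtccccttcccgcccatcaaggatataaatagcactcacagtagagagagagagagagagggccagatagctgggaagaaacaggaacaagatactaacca
The words were searched on both strands with N standing for any base. The HNF4 word CAAAGTCCA began at position -67 of Cyp8b1 and occurs in 0.475% of the 32851 promoters of the reference table. The STAT word TTCNNNGAA began at position -91 of Nr0b2 and occurs in 8.3% of them. The windows of Fgfr4, Klb, Cyp27a1 and Nr1h4 held none of these words and none of the CRE word TGACGTCA (1.79% of promoters), the AP-1 word TGANTCA (7.81%) or the LRH-1 word CAAGGTCA (1.56%), which says only that those letters are not in these windows. None of the 10 genes lies on chromosome 11, where Sirt7 is.

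Fgfr4 fell in SIRT7 KO livers. Its brightest probe set, 1418596_at, read 8.17, 8.26, 8.37 and 8.17 on WT arrays 1 to 4 and 7.08, 7.39, 7.44 and 7.42 on SIRT7 KO arrays 1 to 4. All SIRT7 KO arrays lay below all WT arrays, and the gap between the groups was wider than the range within either of them. The mean was 8.24 ± 0.097 in WT and 7.33 ± 0.17 in SIRT7 KO (SD, n = 4), a difference of -0.91 ± 0.096 (SE, 95% confidence interval -1.12 to -0.69), so that 53.3% of the WT level was left. The adjusted p from limma over all probe sets was 0.00943, where a probe set was called at an adjusted p under 0.15. It stayed called without any of the 8 arrays, with adjusted p from 0.0138 to 0.0407. In liver tissue, fewer cells of a type and less RNA per cell cannot be told apart.

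Of the other 4 probe sets of Fgfr4, 1 was also lower and 3 were not called. Probe set 1427776_a_at read 4.73, 4.92, 4.89 and 4.68 in WT and 4.33, 4.38, 4.60 and 4.58 in SIRT7 KO, without overlap, and fell by 0.33 ± 0.091 (SE, adjusted p = 0.133 by limma). Its SIRT7 KO mean of 4.47 lay under the lower quartile of all probe set means, and it was called in only 1 of 8 fits that left an array out, the fit without WT array 4. Both Fgfr4 probe sets that were lower ranked the arrays so that SIRT7 KO array 1 was lowest and SIRT7 KO array 3 the highest of its group. Probe sets 1427777_x_at and 1427846_x_at both read higher than 1427776_a_at in either genotype. They differed by -0.15 (95% confidence interval -0.43 to 0.13) and by 0.00088 (-0.17 to 0.17). Probe set 1427845_at, which lay under the lower quartile in both genotypes, differed by 0.14 (-0.11 to 0.40). Averaged over its 5 probe sets, Fgfr4 differed by -0.25 ± 0.076 and was no longer called (adjusted p = 0.161 by limma). The annotation gives the same sequence record for 1427776_a_at and 1427777_x_at. Another is shared by 1427845_at and 1427846_x_at, and that of 1418596_at is separate. Which transcripts of Fgfr4 each probe set reads is not stated there.

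**Figure D1:**
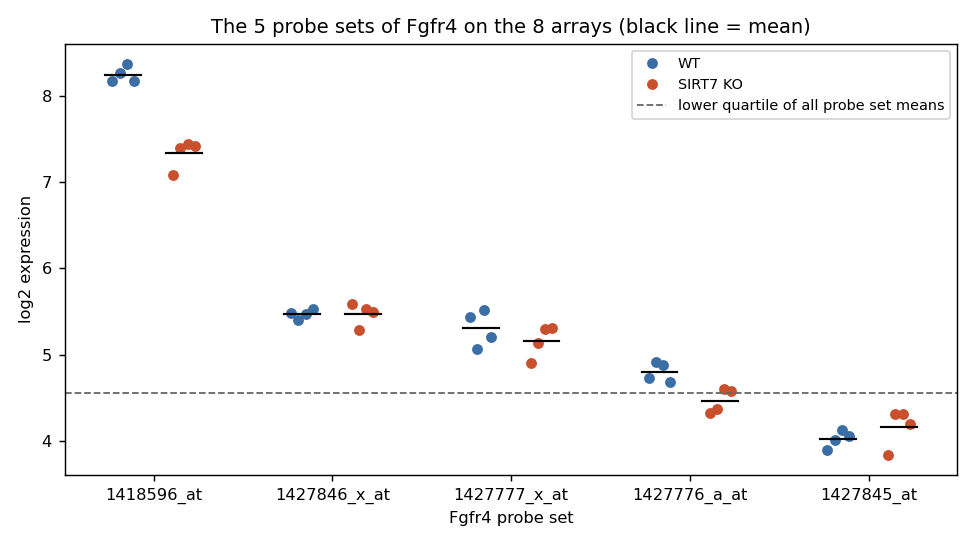
Log2 expression of the 5 probe sets of Fgfr4 on each of the 4 WT (blue) and 4 SIRT7 KO (red) arrays, with the group mean as a black line and the lower quartile of all probe set means (4.56) dashed. The brightest probe set separates the genotypes by 0.91 and 1427776_a_at by 0.33, whereas the points of the other 3 overlap.

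Klb, which gives FGFR4 its affinity for FGF15, was not called. Its bright probe set 1449568_at read 9.85, 9.37, 9.27 and 9.02 in WT and 9.52, 9.42, 8.58 and 8.77 in SIRT7 KO. SIRT7 KO arrays 1 and 2 lay among the WT arrays and SIRT7 KO arrays 3 and 4 below them. The difference was -0.31 ± 0.24 (SE, 95% confidence interval -0.85 to 0.24), an interval that holds both 0 and a fall of the size given for Fgf1 below. The other Klb probe set, 1426075_at, lay under the lower quartile in both genotypes.

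Fgf1 fell in SIRT7 KO livers on both of its probe sets, for which the annotation gives the same sequence record. Probe set 1423136_at read 9.29, 9.42, 9.02 and 9.86 in WT and 8.81, 8.67, 8.67 and 8.79 in SIRT7 KO, so that all SIRT7 KO arrays lay below all WT arrays. It fell by 0.66 ± 0.15 (SE, 95% confidence interval -1.01 to -0.32, adjusted p = 0.0926 by limma). Probe set 1450869_at read 9.34, 9.28, 8.75 and 9.39 in WT and 8.65, 8.64, 8.84 and 8.66 in SIRT7 KO. Here SIRT7 KO array 3 lay above WT array 3, and the fall was 0.49 ± 0.14 (adjusted p = 0.136 by limma). WT arrays spread more widely than SIRT7 KO arrays on both probe sets, with SDs of 0.35 against 0.077 and of 0.30 against 0.095. The call of 1423136_at was kept only without WT array 3 or WT array 4 (adjusted p from 0.0629 to 0.196 over the 8 fits) and that of 1450869_at only without WT array 3 (0.0243 to 0.294).

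**Figure D2:**
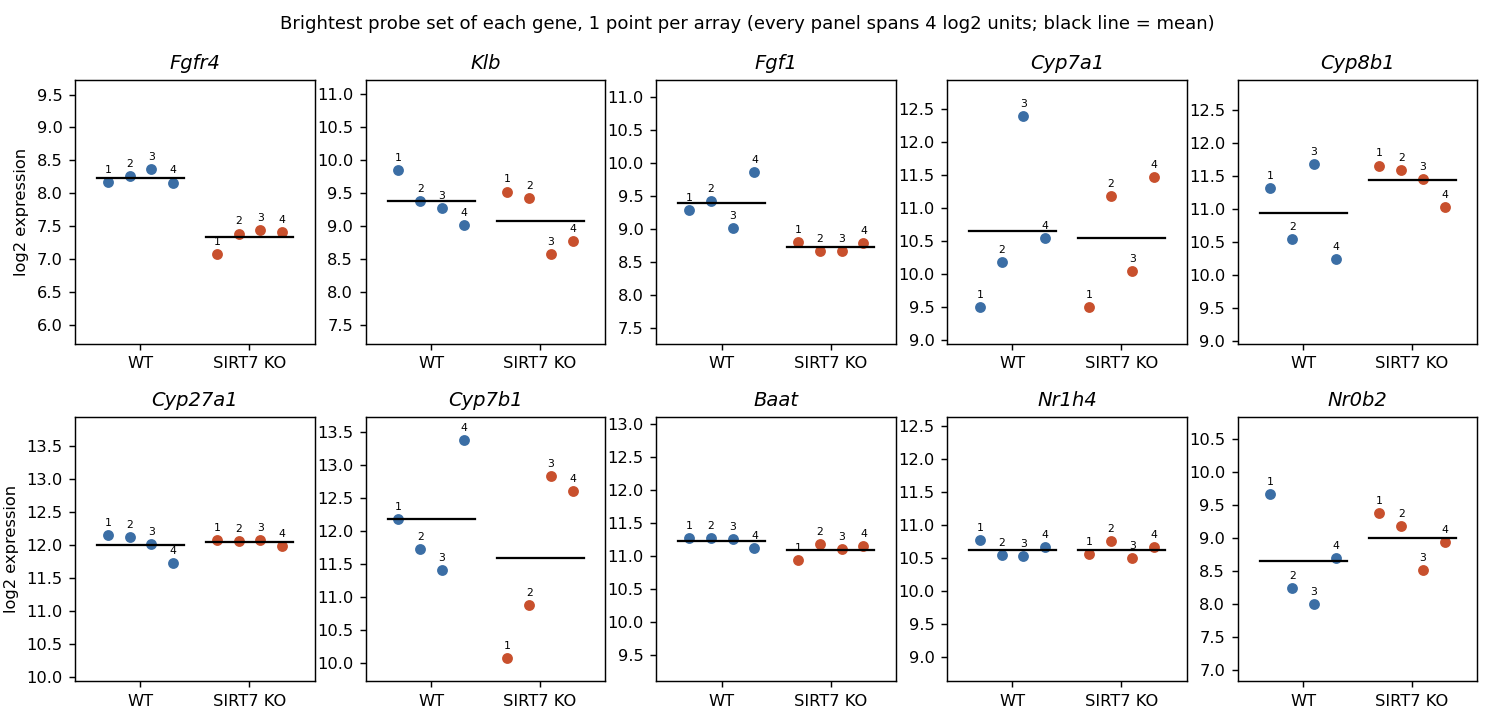
Log2 expression of the 10 genes, each by its brightest probe set, with 1 numbered point for each WT (blue) and SIRT7 KO (red) array and the group mean as a black line. Each panel spans 4 log2 units. The genotypes do not overlap for Fgfr4 and Fgf1, and Cyp7a1 and Cyp7b1 spread over several log2 units within a genotype.

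The enzymes that open the routes of bile acid synthesis were not called. Cyp7a1, the rate-limiting enzyme of the classical route, read 9.49, 10.18, 12.39 and 10.54 in WT and 9.49, 11.18, 10.04 and 11.46 in SIRT7 KO on probe set 1438743_at. WT array 3 was the highest, and WT array 1 and SIRT7 KO array 1 were the lowest. The range over the 8 arrays was 7.49-fold, and the pooled SD within the genotypes was larger than that of 99.6% of all probe sets. The difference was -0.11 ± 0.62 (SE, 95% confidence interval -1.51 to 1.30), and leaving out an array moved it between -0.50 and 0.47. The dimmer probe set 1422100_at differed by -0.31 ± 0.54 (-1.52 to 0.90) and again had WT array 3 highest. Both intervals reach far to either side of 0, so that sizeable changes of Cyp7a1 were not detectable with 4 arrays a group.

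Cyp7b1, the oxysterol 7α-hydroxylase of the alternative route, spread even more widely. Its probe set 1421074_at read 12.18, 11.73, 11.41 and 13.39 in WT and 10.07, 10.88, 12.84 and 12.61 in SIRT7 KO. The SIRT7 KO arrays formed a low pair (1 and 2) and a high pair (3 and 4), and the WT arrays other than WT array 4 lay between the pairs. The difference was -0.58 ± 0.64 (SE, 95% confidence interval -2.02 to 0.86). The range over the 8 arrays was 9.95-fold on this probe set and 11.4-fold on 1421075_s_at. Both probe sets put the arrays in the same order, and the annotation gives the same sequence record for both. The pooled SD of both was larger than that of 99.7% of all probe sets.

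Cyp27a1, the mitochondrial sterol 27-hydroxylase that opens the alternative route, was narrow by comparison. It read 12.15, 12.12, 12.01 and 11.73 in WT and 12.08, 12.05, 12.07 and 11.98 in SIRT7 KO, a difference of 0.046 ± 0.096 (SE, 95% confidence interval -0.17 to 0.26). Cyp8b1, the sterol 12α-hydroxylase that sets the share of cholic acid, read 11.31, 10.53, 11.67 and 10.24 in WT and 11.65, 11.59, 11.44 and 11.03 in SIRT7 KO. Its SIRT7 KO arrays lay within the upper part of the WT range, and the difference was 0.49 ± 0.30 (-0.17 to 1.16). The WT arrays of Cyp8b1 spread with an SD of 0.67 and the SIRT7 KO arrays with an SD of 0.28.

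Baat, which joins bile acids to taurine or glycine, was among the most even of the 10 genes. Probe set 1419002_s_at read 11.28, 11.27, 11.26 and 11.13 in WT and 10.94, 11.18, 11.10 and 11.15 in SIRT7 KO, a difference of -0.14 ± 0.075 (SE, 95% confidence interval -0.31 to 0.028). WT arrays 1 to 3 lay above all SIRT7 KO arrays, and WT array 4 lay among them. Probe set 1419001_at differed by -0.095 ± 0.070 (-0.25 to 0.063).

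**Figure D3:**
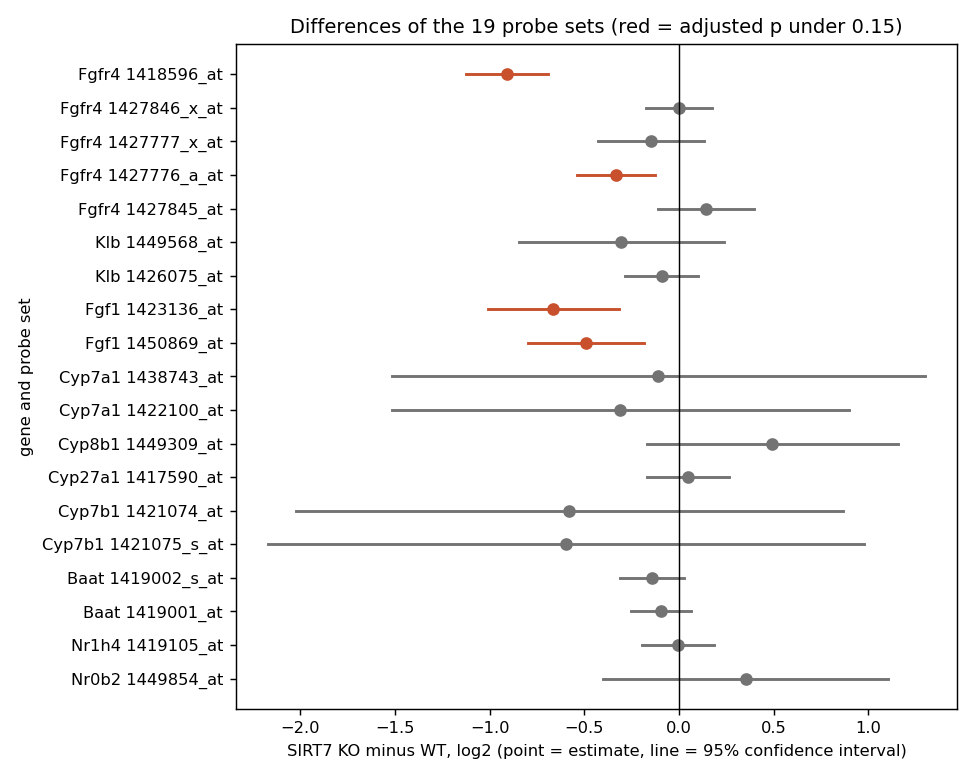
Difference in log2 expression (SIRT7 KO minus WT) of each of the 19 probe sets, with its 95% confidence interval from limma. The 4 probe sets with an adjusted p under 0.15 (red) belong to Fgfr4 and Fgf1, and the widest intervals are those of Cyp7a1 and Cyp7b1.

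The nuclear receptors of bile acid feedback were not called. Nr1h4, which encodes FXR, read 10.77, 10.54, 10.53 and 10.66 in WT and 10.56, 10.75, 10.49 and 10.67 in SIRT7 KO. These groups overlapped throughout, and the difference was -0.0071 ± 0.084 (SE, 95% confidence interval -0.20 to 0.18). Nr0b2, which encodes SHP, read 9.67, 8.25, 8.01 and 8.70 in WT and 9.38, 9.18, 8.52 and 8.94 in SIRT7 KO. WT array 1 was the highest and WT arrays 2 and 3 the lowest, and the difference was 0.35 ± 0.33 (-0.40 to 1.10). The pooled SD of Nr0b2 was larger than that of 98.3% of all probe sets.

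Over the 19 probe sets, 4 were called lower and 0 higher, against 2.39% called lower and 1.92% called higher of all probe sets tested. In 3 of them all SIRT7 KO arrays lay below all WT arrays and in 0 above, against 5.56% and 3.79% of all probe sets. With every gene read by its brightest probe set, 2 of the 10 genes were called lower, 0 were called higher and 8 were not called, against 2.48% lower and 2.17% higher of all genes. These shares stand beside each other as a description only, since the list was drawn up with Fgfr4 and Fgf1 known. The last probe set inside the threshold was 1450869_at of Fgf1 (adjusted p = 0.136 by limma), and the next was 1419002_s_at of Baat (adjusted p = 0.436 by limma). The difference was negative for 14 probe sets and positive for 5, with a median of -0.14 against -0.0031 over all probe sets. At an unadjusted p under 0.05, the same 4 probe sets passed, against 14.9% of all probe sets. A mean over the 8 arrays above the median of all probe sets was found for 14 of the 19.

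**Figure D4:**
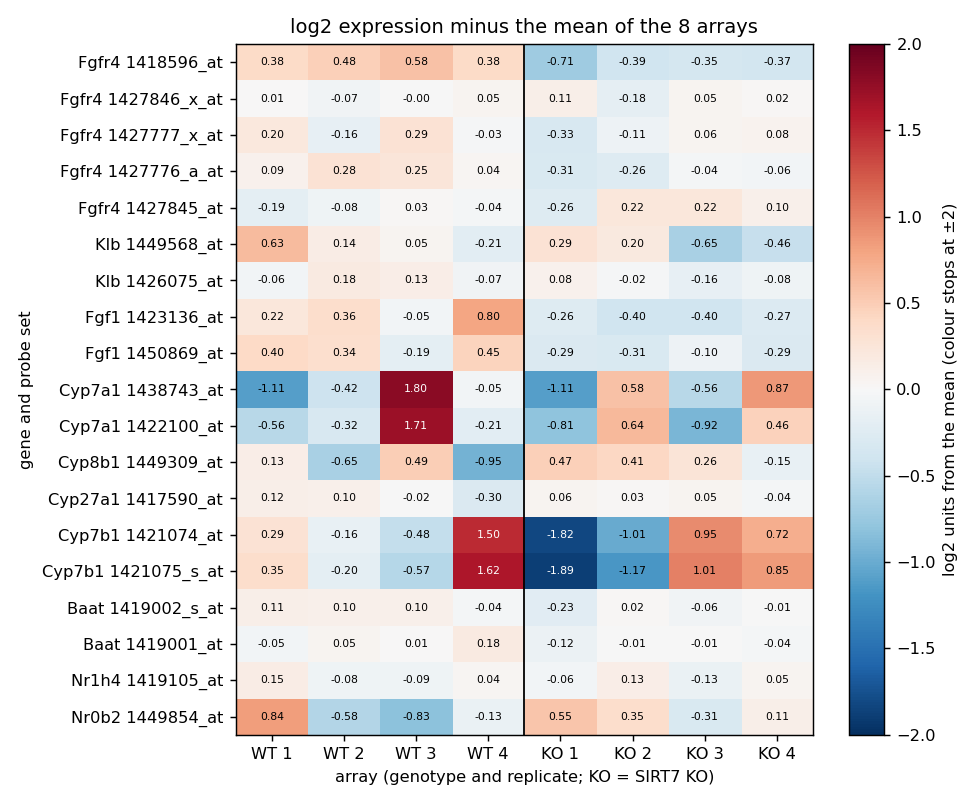
Log2 expression of each of the 19 probe sets on each array minus its mean over the 8 arrays, with WT arrays on the left and SIRT7 KO arrays (KO) on the right. Cyp7a1 stands highest on WT array 3, and Cyp7b1 is low on SIRT7 KO arrays 1 and 2 and high on WT array 4 and SIRT7 KO arrays 3 and 4 on both of its probe sets.

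By their brightest probe sets, the other genes of the FGF pathway were not called. Of 22 FGF family genes measured, listed as FGF ligands, 1 was called lower (Fgf1) and 0 higher, against 2.48% and 2.17% of all genes. Of the 21 without Fgf1, 0 reached an unadjusted p under 0.05 by limma, against 15.6% of all genes by their brightest probe sets. Their median difference was 0.0090 with Fgf1 and 0.023 without it, against -0.0031 over all genes, and 13 of the 22 had a mean over the 8 arrays under the lower quartile of all probe set means. Fgf15, which is made in the ileum, read from 4.61 to 5.06 in WT and from 4.83 to 5.09 in SIRT7 KO. Fgf21, a hormone of the liver that also signals through Klb, read 8.42, 7.32, 8.59 and 6.05 in WT and 9.08, 8.88, 7.00 and 6.64 in SIRT7 KO, a difference of 0.31 ± 0.69 (SE, 95% confidence interval -1.25 to 1.86). Fgf15 and Fgf21 are named for their part in this pathway, after their values were seen.

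Of 8 FGF receptors, co-receptors and binding proteins measured, Fgfr4 was called lower and 0 were called higher, against 2.48% and 2.17% of all genes. Of the 6 without Fgfr4 and Klb, 0 had an unadjusted p under 0.05 by limma, and their median difference was -0.043. Fgfr2 differed by -0.072 ± 0.14 (SE), Fgfr3 by -0.22 ± 0.14 and Fgfrl1 by -0.071 ± 0.16. They are named after their values were seen, as those of the 6 brighter than the median of all probe sets. Of 18 genes of FGF receptor signalling measured, from adaptors to feedback inhibitors, 0 were called in either direction by their brightest probe sets. Over all genes, 2.48% were called lower and 2.17% higher. The median difference of the 18 was 0.047. The only gene among them with an unadjusted p under 0.05 by its brightest probe set was Spred2, an inhibitor of the MAP kinase cascade (0.39 ± 0.17, adjusted p = 0.318 by limma). Dusp6, a phosphatase induced by that cascade, differed by 0.11 ± 0.37, and it too was named after its values were seen.

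The dimmer probe sets of the genes in the 6 lists, outside the 10 genes, were read as well. Of these 59, 1 was called lower and 0 higher, against 2.39% and 1.92% of all probe sets. By limma, 10 of the 59 had an unadjusted p under 0.05, against 14.9% of all probe sets. Of these 10, 4 were among the 15 of FGF receptor signalling and 4 among the 19 of nuclear receptors and regulators. The FGF family genes and bile acid synthesis held 1 each. The probe set called was 1427699_a_at of Ptpn11, named after its values were seen. Ptpn11 encodes SHP2, a phosphatase that carries the signal from FGF receptors to the MAP kinase cascade. It read 7.67, 7.68, 7.70 and 7.49 in WT and 7.43, 7.30, 7.03 and 7.07 in SIRT7 KO. All SIRT7 KO arrays lay below all WT arrays, and the probe set fell by 0.43 ± 0.10 (SE, adjusted p = 0.0962 by limma). Among the 8 fits that each left an array out it was called in 2, those lacking SIRT7 KO array 1 or WT array 4, with adjusted p between 0.0871 and 0.223. The brightest probe set of Ptpn11, 1451225_at, differed by -0.022 ± 0.067 (adjusted p = 0.916 by limma), so that the probe sets of this gene disagreed.

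Of 22 genes of bile acid synthesis and conjugation measured, 0 were called, against 2.48% lower and 2.17% higher of all genes. Of their differences, 11 were positive. The median difference was -0.013, and 0.0068 over the 17 genes without the enzymes described above. By limma, 4 of the 17 had an unadjusted p under 0.05, a share to be read against the 15.6% of all genes. Named after their values were seen, these were the steroid 5β-reductase Akr1d1 (-0.33, adjusted p = 0.182), the bile acid CoA ligase Slc27a5 (-0.25, adjusted p = 0.235), Acnat2 (-0.68, adjusted p = 0.329) and the cholesterol 25-hydroxylase Ch25h (0.27, adjusted p = 0.217).

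Of 15 genes of bile acid and biliary lipid transport measured, 1 was called higher and 0 lower, against 2.17% and 2.48% of all genes. The median difference was -0.065. By limma, 3 of the 15 had an unadjusted p under 0.05, against 15.6% of all genes. The gene called was Abcb4, the canalicular transporter that moves phosphatidylcholine into bile. It read 11.07, 11.11, 11.14 and 11.21 in WT and 12.00, 11.76, 11.59 and 11.62 in SIRT7 KO. All SIRT7 KO arrays lay above all WT arrays, and Abcb4 rose by 0.61 ± 0.094 (SE, adjusted p = 0.0391 by limma), a call kept without any of the 8 arrays. The bile salt export pump Abcb11, likewise named after its values were seen, differed by -0.065 ± 0.11 (95% confidence interval -0.31 to 0.18).

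Of 19 nuclear receptors and regulators of bile acid genes measured, 2 were called lower and 0 higher, against 2.48% and 2.17% of all genes. For 4 of the 19 the difference was positive. The median difference was -0.14, and -0.15 over the 17 genes without Nr1h4 and Nr0b2, against -0.0031 over all genes. By limma, 7 of the 17 had an unadjusted p under 0.05, against 15.6% of all genes. Prox1, a homeobox factor that represses Cyp7a1, read 5.53, 5.43, 5.10 and 5.49 in WT and 5.06, 4.81, 4.85 and 4.74 in SIRT7 KO, without overlap. It fell by 0.52 ± 0.11 (SE, adjusted p = 0.0718 by limma), a call lost when SIRT7 KO array 2 or 4 or WT array 1 was left out (adjusted p from 0.0449 to 0.189 over the 8 fits). Nr1i3, which encodes the xenobiotic receptor CAR, read 9.46, 9.42, 8.87 and 9.17 in WT and 8.93, 8.64, 8.48 and 8.82 in SIRT7 KO. It fell by 0.52 ± 0.14 (adjusted p = 0.142 by limma), with overlap, and was called only without WT array 3 among the 8 fits (0.0792 to 0.301). Hnf4a, whose word stands in the Cyp8b1 window, differed by -0.27 ± 0.11 (adjusted p = 0.305 by limma), and Nr5a2, which encodes LRH-1, by -0.34 ± 0.12 (adjusted p = 0.219 by limma). Both were named after their values were seen.

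**Figure D5:**
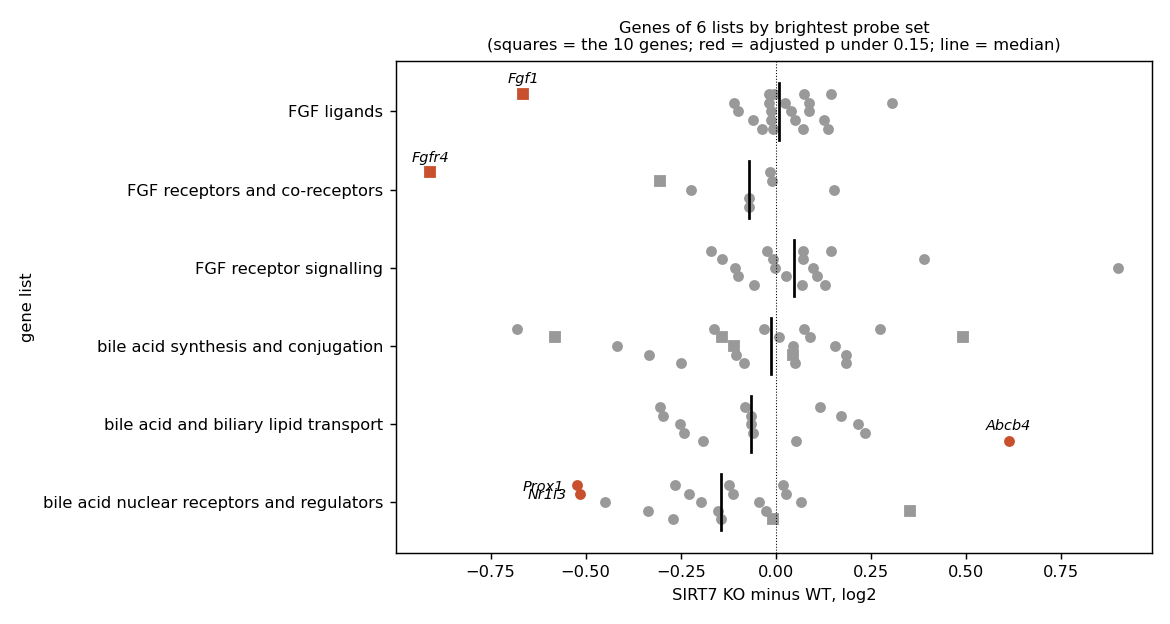
Difference in log2 expression (SIRT7 KO minus WT) of each gene in 6 lists by its brightest probe set, with the median of each list as a black line. Squares are the 10 genes, and the red symbols with names (Fgf1, Fgfr4, Abcb4, Prox1 and Nr1i3) are those with an adjusted p under 0.15.

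Markers of cell types and control probe sets of the arrays were set beside these falls. Of 4 hepatocyte markers, 0 were called and 0 had an unadjusted p under 0.05 by limma, and their mean per array ran from 14.78 to 14.88 in WT and from 14.75 to 14.83 in SIRT7 KO. Zonal markers of hepatocytes were lower in part, with 2 of 9 pericentral markers (Cyp1a2 by -0.54 and Slc1a2 by -0.93) and 1 of 5 periportal markers (Hal by -0.77) called lower and 0 called higher. Outside hepatocytes, 1 of 6 endothelial markers (Lyve1 by 1.21) and 1 of 6 stellate cell markers (Dcn by 0.41) were called higher, 1 of 5 lymphocyte markers was called lower (Cd3g by -0.39), and 0 of 5 cholangiocyte, 0 of 6 macrophage and 0 of 3 neutrophil markers were called or had an unadjusted p under 0.05 by limma. Such a p was found for 2 of the pericentral and 2 of the periportal markers. It was also found for 1 of the endothelial, 3 of the stellate cell and 1 of the lymphocyte markers. Over all genes by their brightest probe sets, 15.6% had such a p, 2.48% were called lower and 2.17% higher. The difference was positive for 5 of 6 stellate cell markers (median 0.23) and 6 of 6 macrophage markers (median 0.15), and for 0 of 3 neutrophil markers (median -1.24). The mean over the endothelial markers ran from 7.82 to 8.07 in WT and from 7.97 to 8.22 in SIRT7 KO, and that over the stellate cell markers from 7.59 to 8.09 and from 7.95 to 8.35. The macrophage mean ran from 8.55 to 9.45 and from 8.71 to 9.65, and the neutrophil mean from 5.48 to 10.64 and from 5.31 to 9.72. For the Gapdh controls, which read the transcript from its 3′ and its 5′ end, the former exceeded the latter by 0.16 to 0.29 in WT and by -0.016 to 0.16 in SIRT7 KO, with every SIRT7 KO array below every WT array. The mean of 45 spike-in probe sets ran from 8.63 to 8.76 in WT and from 8.39 to 8.61 in SIRT7 KO, again without overlap. SIRT7 KO array 1, the lowest array for Fgfr4, was the lowest on both measures. The part of these values in the falls of Fgfr4 and Fgf1 was not tested.

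The genes whose profile lay nearest to that of Fgfr4 were Gpr155, Amy1, F7, Polr3g and Foxa3. Nearness was the root mean square distance over the 8 arrays between 2 probe sets, each taken relative to its own WT mean, among 6913 genes brighter than the median. The distances were 0.18 for Gpr155, 0.20 for Amy1 and F7 and 0.21 for Polr3g and Foxa3, and the order of genes so close together is not resolved. F7 encodes coagulation factor VII, Foxa3 a transcription factor of hepatocytes, and Amy1 an amylase. Their differences ran from -1.06 for Amy1 to -0.65 for F7, next to -0.91 for Fgfr4, and a small distance of this kind requires a fall of similar size.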

How the data were processed

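Livers of 4 WT and 4 SIRT7 KO mice were profiled on 1 array each. The authors deposited a table of log2 values that had been background-corrected, normalized across arrays and summarised to 1 value a probe set. Their methods name RMA, while GCRMA stands in the submitters' processing notes, so the algorithm behind the values is not known, and versions were not stated in the sources. Such steps can shrink dim values together, so differences of dim probe sets may be understated, which was not tested.

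Of 22690 probe sets, 64 controls were left out and 22626 were tested. GEO's platform annotation, which can be old, gave 1 symbol for 20380, several for 691 and none for 1555. By Entrez ID 20351 matched the RefSeq gene table. Of several probe sets of a gene, the brightest over the 8 arrays stood for it. Genotypes were compared with limma 3.58.1 in R 4.3.3 (lmFit and eBayes, genotype only, two-sided, Benjamini-Hochberg over all tested probe sets), checked first on simulated data. A probe set was called at an adjusted p under 0.15, the rate the study's methods set. Errors are limma's standard errors or SDs over 4 arrays, and the number of arrays limits their precision. Lists were described by counts and medians and not tested.

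The 10 genes, the lists, the tests and the alternatives were chosen with earlier results of these data known. Named were the 10 genes, Sirt7, called genes of each list (up to 4 a direction by smallest p) and the 5 genes nearest to Fgfr4, and other genes are said to be named after their values were seen. The alternatives were a threshold of 0.05, eBayes with trend and robust variance, array weights, a further quantile normalization, probe sets above the median brightness only, the replicate number as a block, each array left out, and the mean over the probe sets of a gene. Protein sequences, which had been planned, were not used here. Neither were listed genes without a probe set of their own symbol.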

Additional observations from a re-analysis of the deposited data

Results flagged for a closer look

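In 5 of the 38 groups of 4 arrays examined for the 19 probe sets, the highest or lowest array stood far from the other 3 (a gap to its neighbour, as a share of the group's range, above Dixon's 95% critical value). That is 13.2% of the groups, where chance gives about 1 in 20 and the share over all probe sets was 5.39%. SIRT7 KO array 1 was low for Fgfr4 on probe set 1418596_at, at 7.08 with the next array at 7.39. For Fgf1 on probe set 1450869_at, WT array 3 was low at 8.75 with the next at 9.28, and SIRT7 KO array 3 was high at 8.84 with the next at 8.66. WT array 3 was high for Cyp7a1 on probe set 1422100_at, at 9.76 with the next at 7.83. WT array 4 was low for Baat on probe set 1419002_s_at, at 11.13 with the next at 11.26.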

How the results depend on the processing

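Over 267 comparisons of a member's difference with that under another setting, 240 kept their side of the threshold, 27 kept the direction and lost the call, and 0 turned a called direction. In 19 of the 240 a difference that was not called changed its sign, for Fgfr4 1427846_x_at, both Cyp7a1 probe sets, Cyp27a1 and Nr1h4. The lost calls were those of Fgfr4 1427776_a_at and of both Fgf1 probe sets, and the mean over the 5 Fgfr4 probe sets. Fgfr4 1418596_at was called throughout. Of the 19 probe sets, 4 were called in the main analysis, 1 at the stricter threshold of 0.05 and between 1 and 3 with an array left out. The number was 1 without WT array 1 or 2 or any SIRT7 KO array. Over all 22626 probe sets, 975 were called, 156 at the stricter threshold and between 222 and 900 with an array left out. Without WT array 1 it was 222, WT array 2 503, SIRT7 KO array 1 576, SIRT7 KO array 2 460, SIRT7 KO array 3 594 and SIRT7 KO array 4 267.

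Whether the replicate numbers pair the arrays is not stated in the labels. The deviations of same-numbered arrays correlated at 0.26, -0.25, -0.16 and 0.15, and those of differently numbered arrays from -0.44 to 0.31. So few correlations cannot decide whether the arrays were paired. With the replicate number as a block, 628 probe sets were called over all, and of the 19 probe sets 2, namely Fgfr4 1418596_at (adjusted p = 0.0411 by limma) and Fgf1 1423136_at (adjusted p = 0.110 by limma).

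Among the FGF family genes listed as ligands 1 gene was called, 0 at the stricter threshold and 0 to 1 with an array left out (1 without WT array 3 or 4). Among FGF receptors 1 was called, and 0 by the mean over probe sets. Among genes of bile acid synthesis 0 were called, 2 with array weights (Akr1d1 and Slc27a5), 1 among bright probe sets (Akr1d1) and 0 to 2 with an array left out (2 without WT array 4). Among transporters 1 was called, 2 among bright probe sets (Abcb4 and Abcg2) and 1 to 2 with an array left out (2 without WT array 3 or 4). Among nuclear receptors and regulators 2 were called, 0 at the stricter threshold and 1 with quantile normalization (Prox1). Among bright probe sets 1 was called (Nr1i3), and Prox1, dimmer than the median, was not in that fit. With an array left out 0 to 3 were called. The number was 3 without WT array 3, 0 without WT array 1 or SIRT7 KO array 2 or 4, and 1 otherwise. Fgf1 1450869_at was lost with quantile normalization (-0.47, adjusted p = 0.170 by limma). Apart from the absence of Prox1 among bright probe sets, the cause of these shifts was not tested. Background correction and slide could not be varied, because the deposited table holds finished values.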

Other observations

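Because Cyp7a1 and Cyp7b1 varied more between arrays of a genotype than nearly all other probe sets, the genes whose profiles lay nearest to theirs are given as values, chosen after the data were seen. Each profile was taken relative to its mean over the 8 arrays, among the same 6913 genes. Nearest to Cyp7a1 were Aacs at a root mean square distance of 0.66, Mcm6 at 0.68, the cholesterol synthesis enzyme Sqle at 0.72, Egfr at 0.76 and the lanosterol demethylase Cyp51 at 0.78. Sqle read 9.92, 10.12, 10.76 and 10.13 in WT and 9.87, 10.09, 10.19 and 10.46 in SIRT7 KO, with WT array 3 highest as for Cyp7a1. Nearest to Cyp7b1 were the forkhead factor Foxq1 at 0.33, Phlda1 at 0.35, the interleukin 1 receptor Il1r1 at 0.42, and the complement components C8b and C6 at 0.46 each. Foxq1 read 7.27, 6.97, 6.87 and 8.63 in WT and 6.11, 6.50, 8.83 and 8.31 in SIRT7 KO, so that WT array 4 and SIRT7 KO arrays 3 and 4 were the highest, as for Cyp7b1. The distances to Cyp7b1 were smaller than those to Cyp7a1, none of these genes was called between the genotypes, and no cause of the shared order was tested.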
